A study of Mus musculus with 10 samples.

Results

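The regions described here are the Ldb1 binding peaks that lie close together in the genome of mouse Flk1-sorted cells. The list deposited by the authors holds 4252 peaks, and 487 of them have another peak on the same chromosome with a peak position at most 5000 bases away. These 487 peaks, called clustered peaks below, were chosen by their measured peak positions alone, and the other 3765 are called isolated. A cluster is an unbroken run of peaks in which each position lies at most 5000 bases from the next, and the 487 peaks formed 222 clusters.

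The cells were sorted for Flk1, the VEGF receptor of early blood and endothelial progenitors, from embryoid bodies, which are aggregates of differentiating embryonic stem (ES) cells, on day 4. One chromatin immunoprecipitation (ChIP) library was made with an anti-Ldb1 antibody, and 1 control library was made from the same kind of cells without antibody. The labels do not state the genotype of the ES cells used for these libraries, nor whether animals or cultures were pooled. The series also holds 4 Ldb1+/+ and 4 Ldb1-/- RNA libraries, which are not used here because no gene could be assigned to a peak.

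Ldb1 does not bind DNA itself. It binds LIM-domain proteins, among them the LMO proteins that sit in complexes with GATA and basic helix-loop-helix factors in blood cells, and it can associate with other Ldb1 molecules. In erythroid cells it is known for holding enhancers and promoters of a locus together, the globin locus and its control region being the textbook case, and such control regions are often built from several bound elements a short distance apart.

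Each peak comes with its start, end and position, with the highest coverage (the largest number of reads over any base of the peak) in either library, and with an adjusted p-value, all of them the authors' values. Coordinates are those of build mm9, named in the submitters' processing notes, written as the list gives them. No peak has a ChIP coverage under 20, so weaker sites near a listed peak are not seen. With 1 library of each kind there is no replicate, and the peaks of 1 library are not replicates of a condition, so clustered and isolated peaks are compared as a description without a test. Intervals are 95% intervals that cover counting error alone and treat each peak as independent. A peak is clustered only together with a neighbour, so the intervals of clustered shares are too narrow.

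Most clusters were pairs. Of the 222 clusters, 189 (85.1%) had 2 peaks, 25 had 3, 6 had 4 and 2 had 5. Clusters of 2 spanned a median of 1687 bases from first to last position, clusters of 3 a median of 5057 bases, and the single longest cluster spanned 13785 bases. Over all clusters the median span was 2177 bases, with quartiles of 989 and 3825. Measured from the start of the first interval to the end of the last, a median of 55.4% of a cluster lay inside its peaks. Isolated peaks lay a median of 93868 bases from their nearest neighbour, a distance that the rule itself sets above 5000.

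Short distances between neighbouring peaks were more frequent than somewhat longer ones. Up to 5000 bases there were 265 distances between neighbours, or 53.0 per kb of distance, against 24.6 per kb between 5000 and 10000 bases and 22.0 per kb between 10000 and 20000. The most populated range was 500 to 1000 bases, with 56 distances or 112 per kb. The rate declined to 34.0 per kb between 3000 and 4000 bases, was 46.0 per kb between 4000 and 5000, and was 19.0 per kb just beyond the limit. Chromosomes 8 and 11 carried many of the close neighbours, but the same fall was seen without them, from 25.2 per kb up to 5000 bases to 11.2 between 5000 and 10000 and 9.30 between 10000 and 20000. Chromosome 11 alone went from 22.4 to 11 and 10.4 per kb. The low rate under 500 bases, 10.0 per kb, goes with a property of the list: no 2 intervals overlapped or touched, so positions could not come closer than the widths allow.

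**Figure D1:**
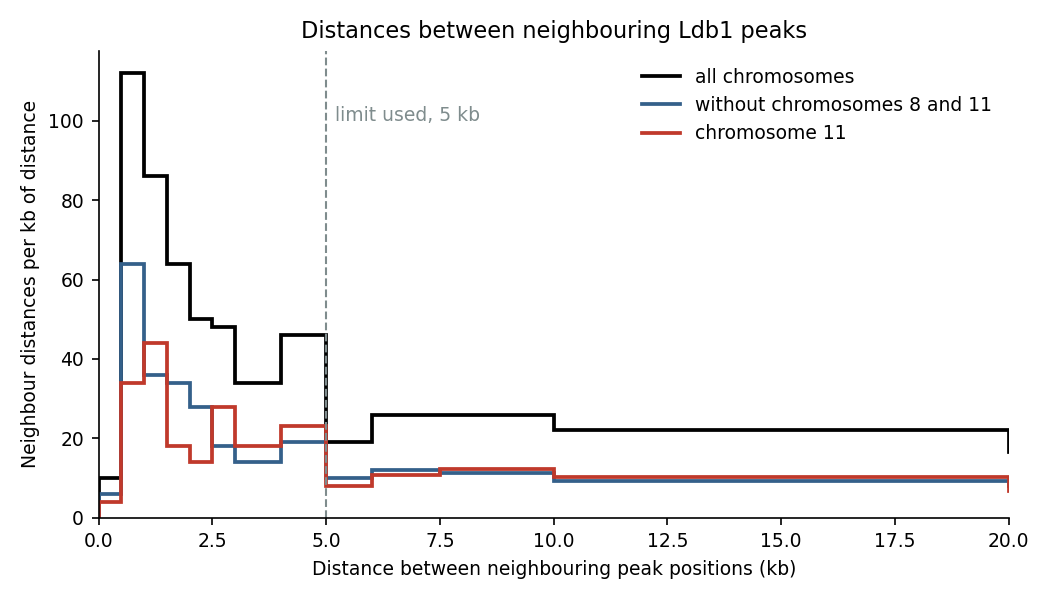
The plot shows distances between neighbouring peak positions (horizontal axis, kb) as the number of neighbour distances per kb of distance (vertical axis) for all chromosomes, for all but 8 and 11, and for chromosome 11. All 3 lines are highest between 0.5 and 1.5 kb and lie lower beyond the dashed limit of 5 kb than between 0.5 and 5 kb.

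Intervals of neighbours inside a cluster were separated by a median of 1069 bases from edge to edge. In 28 of the 265 cases (10.6%) at most 100 bases lay between the end of one interval and the start of the next. The 5 closest pairs lay 386 to 469 bases apart. The closest was chr7:134489055-134489993, where peaks with ChIP coverages of 25 and 20 stood 386 bases apart, followed by chr4:135411423-135412653 with 24 and 20 at 390 bases. The others were chr11:59928261-59929274 (25 and 22 at 440 bases), chr7:117264987-117265827 (22 and 20 at 462 bases) and chr11:82683790-82684612 (23 and 21 at 469 bases). All 5 were weak pairs, with each coverage between 20 and 25, and whether they are separate sites or parts of 1 broader enrichment was not tested.

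On the 2 sides of the limit the coverages were similar. The 5 distances just inside it were 4913, 4938, 4973, 4987 and 4991 bases, all on chromosome 11. Their peaks had ChIP coverages of 21 to 26, except the pair at 4987 bases with 51 and 96. The 5 just outside were 5051, 5061, 5084, 5108 and 5119 bases, on chromosomes 16, 13, 4, 5 and 14, with coverages of 20 to 28 and 1 peak at 61.

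The clustered peaks were unevenly spread over the chromosomes. Chromosome 11 held 199 of the 487 clustered peaks (40.9%) and 87 of the 222 clusters, beside 21.4% of all listed peaks. There 21.8% of the peaks were clustered (Wilson interval 19.3 to 24.6). Chromosome 8 followed with 52 of 340 peaks, or 15.3% (11.9 to 19.5), in 25 clusters. Over the remaining chromosomes 236 of 3000 peaks, or 7.87% (6.96 to 8.88), were clustered, in 110 clusters. The intervals of chromosomes 8 and 11 both lay above that of the rest, but they are too narrow because clustered peaks are not independent of their neighbours.

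The order of the chromosomes went with the density of listed peaks only in part. Chromosome 11 had 7.70 peaks per Mb between its first and last peak and chromosome 8 had 2.65, against 0.977 to 1.96 on the other autosomes. Chromosome 19, the next in density at 1.96 per Mb, was also the next in share, with 13.4% of its peaks clustered (8.29 to 20.9). Chromosome 12 reached 11.5% (7.30 to 17.6) at 1.28 per Mb, with an interval that overlapped that of chromosome 19. Chromosomes 16 and 14 were lowest among the autosomes, with 4 clustered peaks each, 3.20% and 3.60%. Chromosome X had 0 of 22 peaks in a cluster, which allows a share of up to 13.6%. With the chromosomes ordered by their share, the intervals of chromosomes 11 and 8 overlapped only at their edges, and those of the neighbours from chromosome 8 downwards overlapped. The mean control coverage of the listed peaks was 6.43 on chromosome 8 and 5.15 on chromosome 11, against 5.53 over the rest, and its part in the counts was not tested.

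**Figure D2:**
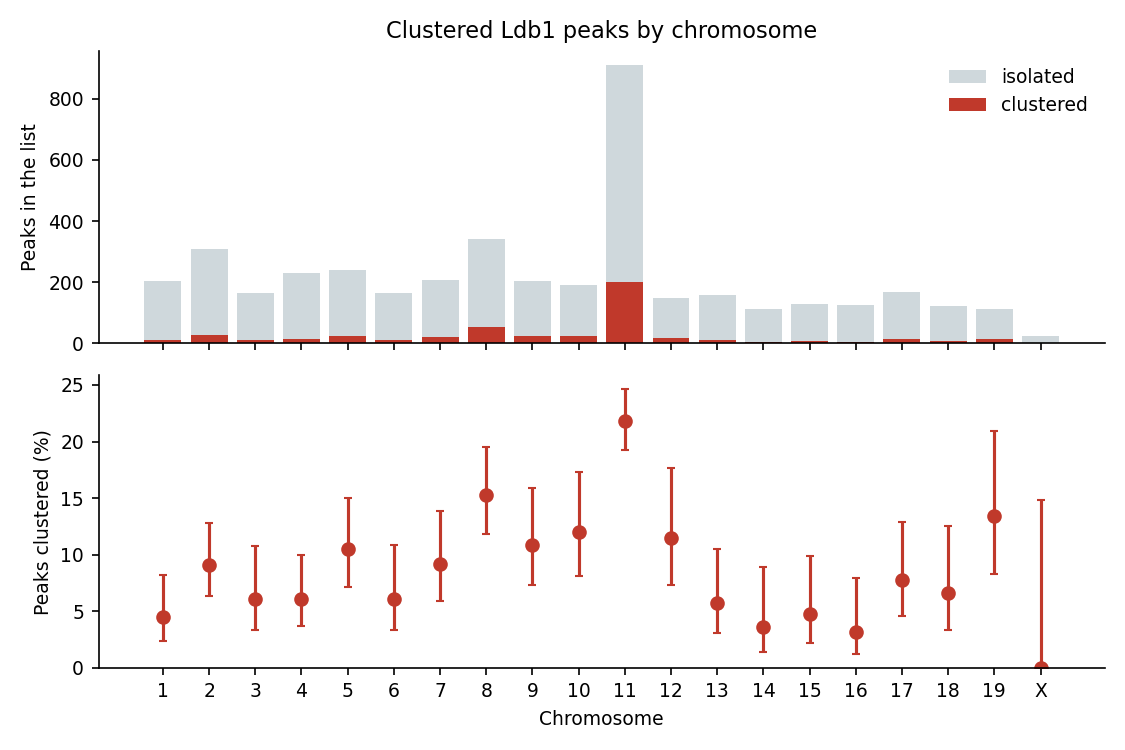
The upper plot gives the number of listed peaks per chromosome, clustered in red and isolated in grey, and the lower plot the percentage clustered with its 95% Wilson interval. Chromosome 11, at 199 of 912 peaks, has the highest count and the highest percentage, 21.8%.

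Along chromosome 11 the clustered peaks were not gathered at 1 place. In windows of 10 Mb the share of peaks in clusters ran from 0 of 15 between 10 and 20 Mb to 30 of 99 (30.3%) between 110 and 120 Mb. The windows from 50 to 60 Mb (27 of 98), 70 to 80 Mb (27 of 118), 90 to 100 Mb (26 of 108) and 100 to 110 Mb (31 of 128) each held more than 25 clustered peaks. The windows between 10 and 50 Mb, which hold 15 to 36 peaks each, had 0 to 5.

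Over all chromosomes together, clustered and isolated peaks lay close together in typical height and width in these libraries. The median ChIP coverage was 24 in both, with a 95% interval of the median of 23 to 25 for the clustered peaks and 24 to 24 for the isolated ones. The median width was 637 bases in clusters (610 to 666) and 650 bases outside (640 to 655), and 12.94% and 12.99% of the peaks were at least 1000 bases wide. By chromosome the widths differed more. On chromosome 11 the median was 634 (598 to 690) in clusters and 710 (680 to 739) outside. It was 688.5 and 676.5 on chromosome 8, and 630 and 640 over the rest. The share of wide peaks was 22.1% in clusters against 23.1% outside on chromosome 11. It was 9.62% against 17.0% on chromosome 8 and 5.93% against 9.95% over the rest, with overlapping intervals. The mean ChIP coverage was 31.9 in clusters with an SD of 25.9 over peaks, and 29.3 with an SD of 16.7 outside. The larger SD in clusters did not show in the quartiles of ChIP coverage, which were 21 and 29 in clusters and 21 and 30 outside. In the upper tail, 13 of 487 clustered peaks (2.67%, 1.57 to 4.51) and 41 of 3765 isolated peaks (1.09%, 0.804 to 1.47) reached a coverage of 100. The highest peak of the whole list, at 243, was isolated, and the highest clustered peak stood at 228.

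This tail differed between chromosomes. Outside chromosomes 8 and 11, 45 of 236 clustered peaks (19.1%, 14.6 to 24.6) and 358 of 2764 isolated peaks (12.95%, 11.8 to 14.3) had a coverage of at least 40. On chromosome 8 the shares were 13 of 52 (25%, 15.2 to 38.2) and 35 of 288 (12.2%, 8.87 to 16.4), with intervals that overlap. On chromosome 11 the order was the other way round, 12 of 199 (6.03%, 3.48 to 10.2) against 60 of 713 (8.42%, 6.59 to 10.7), again with overlapping intervals. At a coverage of at least 30 the clustered peaks of chromosome 11 stood lower, at 16.1% (11.6 to 21.8), than the isolated ones, at 25.9% (22.9 to 29.3). The median coverage on chromosome 11 was 23 in clusters and 25 for isolated peaks.

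Read by height, the share of peaks in a cluster did not rise steadily. It was 11.5% (10.2 to 12.8) among peaks of 20 to 24, 106 of 883 at 25 to 29, 8.67% at 30 to 39, 12.9% at 40 to 59 and 10.9% at 60 to 99. Among the 54 peaks of 100 or more it was 24.1% (14.6 to 36.9). Chromosome 8 contributed 7 of the 13 clustered peaks of this height, out of 12 such peaks on that chromosome. Without chromosomes 8 and 11 the shares of the lowest and the highest class were 7.44% (6.28 to 8.80) and 5 of 34, or 14.7% (6.45 to 30.1), with overlapping intervals.

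**Figure D3:**
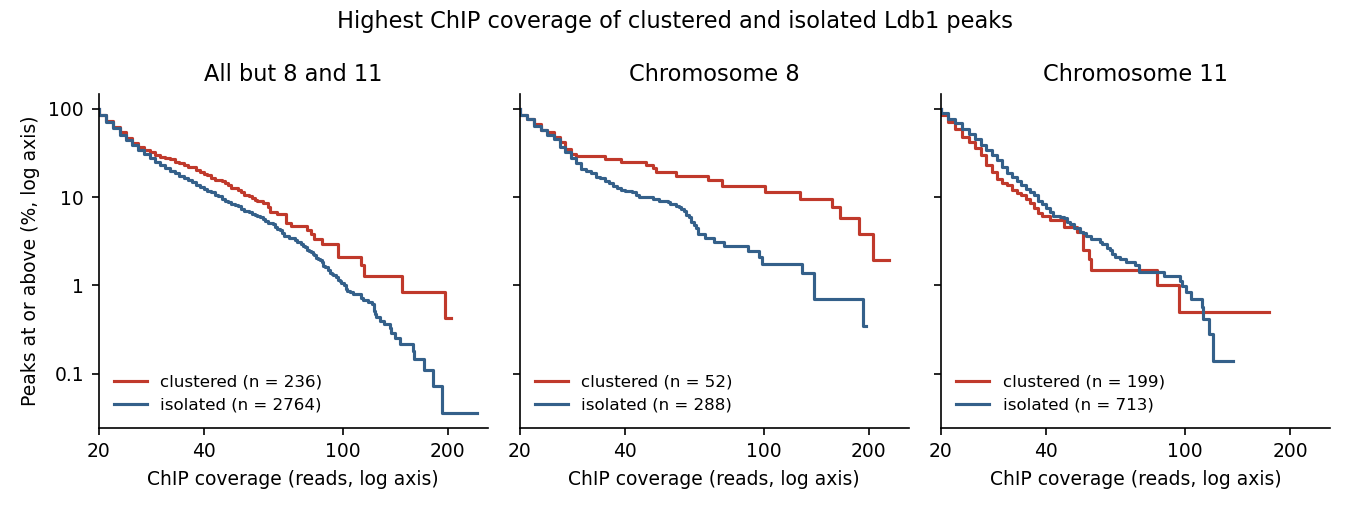
Each curve gives the percentage of peaks (vertical axis, log scale) whose highest ChIP coverage is at or above the value on the horizontal axis (reads, log scale), for clustered and isolated peaks in 3 groups of chromosomes. At a coverage of 40 the clustered curve lies above the isolated one on chromosome 8 (25% against 12.2%) and outside 8 and 11 (19.1% against 12.95%), where it ends at 204 and the isolated one at 243, and below it on chromosome 11 (6.03% against 8.42%).

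The clusters with the tallest peaks were picked by that height, in a list whose median coverage is 24. A much lower neighbour is therefore likely from the choice alone, and 85.1% of all clusters are pairs. Of the 10 clusters with the highest peak, 8 had 2 peaks and 5 lay on chromosome 8, and in 7 of the 8 pairs the coverage of 1 peak was more than 2 times that of the other. The highest was chr8:87223530-87226020, where peaks 1609 bases apart had ChIP coverages of 101 and 228 beside control coverages of 27 and 23. Both of its peaks were among the 54 of the list with a coverage of 100 or more. In chr8:122892474-122896231 a weak peak of 24 was followed after 1121 bases by one of 206 and after another 1851 bases by one of 188, with controls of 5, 12 and 10. This was the only cluster among the 10 that combined 3 peaks with 2 of them above 100.

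On the other chromosomes the leading clusters also had peaks of unequal height. In chr15:99492620-99495800 the coverages were 71 and 204 over a distance of 2332 bases, with controls of 6 and 9, and its second peak had the smallest adjusted p of all clustered peaks, 1.26e-45 in the authors' list. In chr9:107884778-107886320 peaks of 197 and 42 stood 845 bases apart, with controls of 25 and 12. Its intervals nearly abut, with 99.4% of the cluster inside its peaks, and whether the lower peak is a separate site was not tested. In chr11:101342032-101347570 peaks of 37 and 174 stood 4516 bases apart, with controls of 20 and 23, so that the smaller peak was less than 2 times its control. That cluster held the only clustered peak of 100 or more on chromosome 11.

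The remaining clusters of this group also held a tall peak with lower neighbours. On chromosome 8, chr8:90357018-90359727 had coverages of 165 and 23 (controls 34 and 9) and chr8:125222690-125225170 had 157 and 46 (controls 27 and 16). Also on chromosome 8, chr8:124833028-124837820 had 127 and 76 (controls 15 and 14). In chr2:172860160-172864210 a peak of 148 was followed by peaks of 20 and 26, with controls of 7, 4 and 4. In chr18:32697820-32702650 the coverages were 48 and 115, with controls of 15 at both. The control coverage at the strongest peak of these 10 clusters was 7 to 34, above the median of 5 in the whole list. This was not particular to clusters: among peaks of 100 or more the control median was 16 in clusters and 15 outside.

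**Figure D4:**
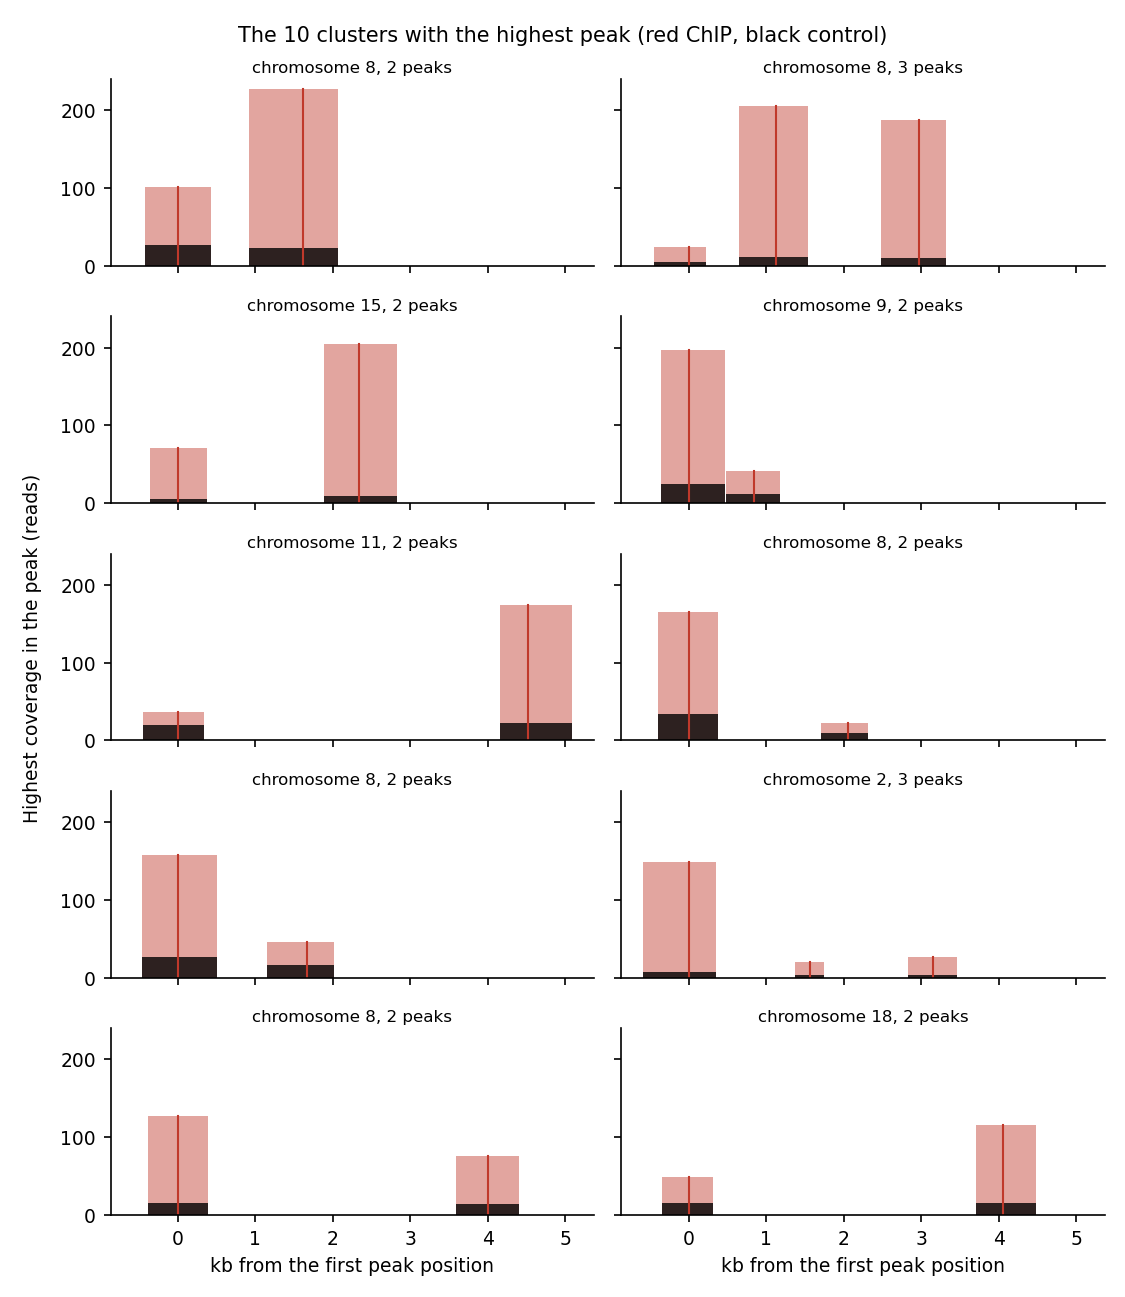
For each of the 10 clusters with the highest peak, boxes span the peak intervals (horizontal axis, kb from the first peak position) and reach the highest coverage (vertical axis, reads), red for ChIP and black for control, with a line at the peak position. Only chr8:122892474-122896231 shows 2 peaks above 100 of similar height, 206 and 188.

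Most clusters with a strong peak, meaning a coverage of at least 40, held only 1 such peak. Strong peaks were a minority of the list as well, at 70 of 487 clustered and 453 of 3765 isolated peaks. Whether strong peaks had strong neighbours more or less often than these counts would give was not tested. A peak of at least 40 was present in 54 of the 222 clusters (24.3%), and 16 clusters held 2 such peaks, named here after their values were seen. Of the 16, 6 lay on chromosome 8, among them chr8:124807910-124811390 (69 and 56, controls 17 and 15) and chr8:125188940-125190717 (48 and 49, controls 13 and 14). Of the 7 clusters on chromosome 8 with a peak of at least 40, 5 fell between 120 and 130 Mb. In that window, singled out after its values were seen, 19 of 61 listed peaks (31.1%) were clustered, in 9 clusters.

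The other 10 were 5 pairs, 4 groups of 3 and 1 of the clusters of 5, which lay on chromosome 11. In chr13:43286930-43289151 the coverages were 69 and 79 (controls 10 and 12), and in chr16:89827800-89830926 they were 61 and 40 (controls 7 and 5). Chromosome 2 had 2 clusters of 3: in chr2:26427170-26434550 the peaks reached 87, 25 and 52 (controls 10, 8 and 9), and in chr2:28453340-28458260 they reached 48, 32 and 59 with a control of 1 at each. In chr11:30057985-30066750 the peaks reached 21, 51 and 96 (controls 7, 12 and 8). In chr1:75442377-75447680 they reached 97, 38 and 52, with the control listed at 0 at each. The lowest peak of these 4 clusters of 3, in that order, stood at 25, 32, 21 and 38, so that none of them was made of strong peaks throughout.

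In pairs where neither peak reached 40 the 2 heights were mostly similar. The floor of 20 leaves such pairs little room to differ. The ratio of the higher to the lower ChIP coverage had a median of 1.23 in the 189 pairs, with quartiles of 1.10 and 1.43, and 12 pairs had equal coverage. A coverage of 20, if read as 20 independent reads, has an exact Poisson interval of 12.2 to 30.9. The Poisson intervals of the 2 peaks did not overlap in 25 pairs (13.2%), and in the other 164 they overlapped, which does not show that the heights were equal. The highest ratio was 7.17, at chr8:90357018-90359727. Because no listed coverage is under 20, only a pair with a peak of at least 40 can reach a ratio of 2. In the 41 pairs with such a peak the median ratio was 2.16, and the Poisson intervals did not overlap in 25. In the 148 pairs without one the median ratio was 1.15. The intervals overlapped in all 148, which was fixed in advance and says nothing about their heights. The interval of 20 ends at 30.9, and even that of 40 starts at 28.6. The median ratio was 1.20 in pairs up to 1000 bases apart, 1.21 between 1000 and 2500 and 1.25 between 2500 and 5000 bases. The upper quartiles at these distances were 1.30, 1.63 and 1.45, and the ratio was over 2 in 4 of 57, 10 of 65 and 9 of 67 pairs.

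Taken cluster by cluster, the strongest peak had a median coverage of 27 with quartiles of 24 and 39, and the other 265 peaks had a median of 22 with quartiles of 20 and 25. The strongest peaks were also wider, with a median of 715 against 589 bases, while the control median was 4 in both. Since the strongest peak is picked by its height, these values describe how a cluster is made up and compare nothing else.

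The strongest peak had a median coverage of 27 in clusters of 2, 33 in clusters of 3, 32.5 in the 6 clusters of 4 and 38 in the 2 clusters of 5. A peak of at least 40 was present in 41 of 189 clusters of 2 (21.7%), 10 of 25 of 3 (40%), 2 of 6 of 4 (33.3%) and 1 of 2 of 5. The highest of more peaks is taken in a larger cluster, so these values compare nothing else. All 8 clusters of 4 or 5 peaks had a highest coverage of 54 or less, and 6 of them lay on chromosome 11. The longest, chr11:72216394-72230740, held 5 peaks of 20, 23, 23, 45 and 49 over 13785 bases, with controls of 5, 0, 0, 0 and 4. The other cluster of 5, chr11:69608978-69618854, had 23, 27, 25, 20 and 20 over 9484 bases, with controls of 6 and then 0 at the remaining 4. Its second peak was 1940 bases wide, against the median of 637 for clustered peaks, and its last was 292 bases wide.

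In the clusters of 4 on chromosome 11 the coverages ran from 20 to 54. In chr11:72295260-72303942, which lies in the same stretch of the chromosome as the longest cluster, the coverages were 35, 54, 22 and 26 with controls of 4, 4, 2 and 3. In chr11:120091070-120099487 they were 51, 22, 20 and 20 with the control at 0 throughout, and the first peak was 2170 bases wide. In chr11:57641111-57650720 they were 23, 24, 20 and 20, and in chr11:117636690-117648152 they were 22, 20, 22 and 21, with the control at 0 in 3 of the 4 peaks of each.

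Outside chromosome 11 there were 2 clusters of this size, and both had control reads at every peak. In chr12:106263690-106273069 coverages of 24, 29, 29 and 33 (controls 4, 4, 6 and 4) spread over 8761 bases. In chr17:47730320-47735410 coverages of 22, 21, 32 and 21 (controls 5, 4, 5 and 8) lay within 4608 bases.

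**Figure D5:**
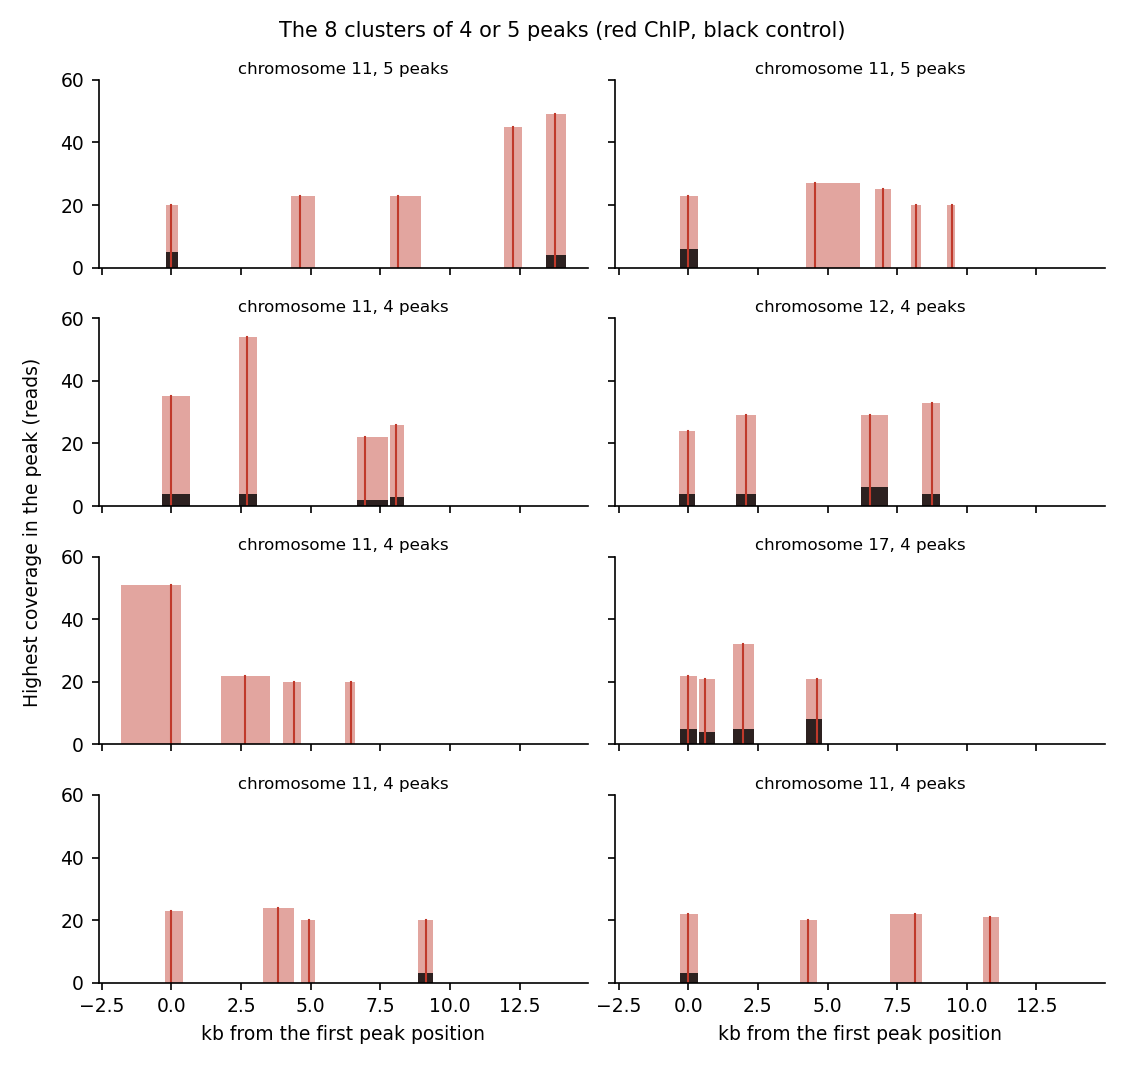
The 8 clusters of 4 or 5 peaks are drawn as peak intervals (horizontal axis, kb from the first peak position) with the highest coverage (vertical axis, reads), red for ChIP and black for control. No peak exceeds 54, and most peaks of 5 of the 6 clusters on chromosome 11 have no black box because their control is listed at 0.

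Peaks with the control listed at 0 were clustered more often than the others in these libraries. Neither the labels nor the file headers say what a listed 0 stands for or whether the control was scaled. The median control coverage was 4 in clusters (3 to 4) and 5 outside (5 to 5), and it was listed at 0 in 50 of 487 clustered peaks (10.3%, 7.87 to 13.3) and in 60 of 3765 isolated ones (1.59%, 1.24 to 2.05). Read the other way, 50 of the 110 peaks with a control of 0 (45.5%) were clustered, against 16.8% at a control of 1 to 2, 10.0% at 3 to 4 and 7.79% at 5 to 7. At a control of 8 to 12 and of 13 or more the shares were 10.2% and 10.5%, so the shares were higher at 0 to 2 and showed no steady order above. Chromosome 11 held 37 of the 50, beside 65 of all 110 peaks with a control of 0, clustered or not. There 18.6% of the clustered peaks (13.8 to 24.6) and 3.93% of the isolated ones (2.73 to 5.62) were at 0. The same order was seen without chromosomes 8 and 11, at 4.66% (2.62 to 8.15) against 0.904% (0.613 to 1.33). On chromosome 8 the shares were 3.85% (1.06 to 12.98) and 2.43% (1.18 to 4.93), with overlapping intervals.

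At least 1 peak with a control of 0 was present in 25 clusters. In 13 of the 25 every peak had a control of 0, 29 peaks in all, and 8 of the 13 lay on chromosome 11. Beside those already described they included chr9:21766460-21768350, with ChIP coverages of 62 and 25, chr11:115936851-115938832, with 22 and 51, and chr11:100254910-100259300, with 27 and 35. The other 8, named like these after their values were seen, had ChIP coverages of 20 to 33. Neighbouring peaks share the surrounding sequence and the same control library, so the peaks of a cluster are not independent observations of a low control.

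The authors' adjusted p-values were lower in clusters. Their median was 0.000179 for clustered and 0.000593 for isolated peaks, and 72.9% and 60.8% were at most 0.001. The median ChIP coverage was equal in both, and the median difference between ChIP and control coverage was 20 in clusters and 19 outside, so the lower p-values went with lower control values. In the named clusters, peaks with equal ChIP and control coverages had equal adjusted p-values. The lower p-values are therefore not an observation separate from the coverages. On chromosome 11 the ChIP median was even lower in clusters, at 23 against 25, while the median adjusted p was 0.000118 against 0.000578.

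The number of clustered peaks is bound to the list and the distance. With neighbours sought among the 1065 peaks of at least 30, 54 were clustered (5.07%), of which 18.5% lay on chromosome 11, beside 20.4% of the peaks. A distance of 1000 bases left 122 clustered peaks, none in a group of more than 2, and 10000 bases gave 703.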

How the data were processed

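The members and all lists were chosen with earlier results of these data known. One Ldb1 ChIP and 1 control library without antibody, from Flk1-sorted cells of day 4 embryoid bodies, were used. The deposited peak list gives, per the file headers, each peak's start, end, position, highest coverage (signal) in each library and its adjusted p-value. Build mm9 and DESeq are named in the submitters' processing notes. Not given in the sources used here are the aligner, the peak caller, any scaling of the control and the base from which starts are counted; a scaled control would change the ratio between the libraries. Tested on the list, the ChIP coverage is at least 20 and the adjusted p at most 0.00998. Sequencing depth per library is unknown. No mm9 genome or annotation was used, so no gene or sequence is given, and the RNA counts were not analysed here.

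Peaks were sorted by position and joined at 5000 bases in Python 3.11.15 with numpy 2.4.6 and pandas 2.3.3. The script was tested on simulated positions. Shares have Wilson intervals, medians binomial order-statistic intervals and coverages exact Poisson intervals (scipy 1.17.1), all at 95%. Figures used matplotlib 3.10.9. A count of 0 was given a limit of 3 counts. Named clusters were the 10 with the most peaks, the 10 with the highest peak, the 5 longest and the 5 closest pairs; others are marked in the text. Nothing was tested: with 1 library of each kind there is no replicate. Alternatives were 3 other distances, stricter limits on coverage, adjusted p and control, gaps between peak edges, merged intervals, and leaving out chromosomes 8 and 11.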

Additional observations from a re-analysis of the deposited data

How the results depend on the processing

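The 487 clustered peaks (11.5% of the list) became 122 (2.87%) at a distance of 1000 bases, 311 (7.31%) at 2500 bases and 703 (16.5%) at 10000 bases. Among peaks with a ChIP coverage of 30 or more they were 54 (5.07%), and without chromosomes 8 and 11 they were 236 (7.87%). At an adjusted p of 0.001 or less 298 were clustered and at a control coverage at or under the median 306, while the share stayed within the interval of the full list, at 11.3% and 11.7%. The gap between peak edges gave 522, and merging overlapping or touching intervals changed nothing because none do. The ratio of median ChIP coverage in clustered to isolated peaks, 1 in the full list, was 1.28 at a ChIP coverage of 30 or more and 0.923 at an adjusted p of 0.001 or less. It lay between 0.958 and 1 under the other 7 alternatives. The ratio of median width, 0.980 in the full list, was 0.908 at 1000 bases and 1.05 at a ChIP coverage of 30 or more, and 0.969 to 0.997 under the other 7. Fewer peaks or a shorter distance give fewer neighbours by construction, and the causes of the other changes were not tested. No paired analysis was possible because the peak list comes from 1 ChIP and 1 control library. Sites below a ChIP coverage of 20 are not listed, so a peak called isolated may have an unlisted neighbour.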
